A study of Homo sapiens with 12 samples.

Results

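The mitochondrial ribosomal protein (MRP) genes were examined in MDA-MB-231 cells, an established human line from a triple-negative breast cancer. All rows of the gene count table whose symbol starts with MRPL or MRPS followed by a number, with at most 1 letter A to C after it, were taken. This gave 78 genes of the 60664 rows, 49 named for the large subunit (MRPL) and 29 for the small subunit (MRPS). RNA-seq had been done on wildtype (WT) cells in normoxia, WT cells held in hypoxia for 24 hr (1% O2 in the methods), and CCAR2 knockout (KO) cells in normoxia, with 4 libraries in each group. CCAR2 encodes DBC1, a nuclear protein that inhibits the deacetylase SIRT1. The KO cells were made with a LentiCRISPR guide, and the sources used here do not say whether they are 1 clone, so the knockout and a difference between lines cannot be told apart. No group combined the knockout with hypoxia. The labels do not say whether the 4 libraries of a group came from separate cultures, so the p-values measure the spread between these libraries, which may be technical.

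The mitochondrial ribosome translates the few mRNAs of the mitochondrial genome, all of which encode membrane subunits of the oxidative phosphorylation complexes. Its rRNAs are transcribed from mitochondrial DNA, whereas all of its proteins are encoded in the nucleus, translated by cytosolic ribosomes and imported. The small subunit binds the mRNA and decodes it, and the large subunit forms the peptide bond and holds the exit tunnel next to the inner membrane. Some names do not match the place of the protein. MRPS30 and MRPS18A were assigned to the large subunit by structures, and MRPS36 (also KGD4) is a component of the 2-oxoglutarate dehydrogenase complex.

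The sum of counts per library was between 153904088 and 213743693 in WT normoxia, between 76384973 and 195621872 in WT hypoxia and between 68599412 and 152328450 in KO cells, and the MRP genes took between 0.404% and 0.481% of it. CCAR2 was at 144, 145, 146 and 151 CPM (normalised counts, scaled to library size) in WT normoxia, at 149, 143, 154 and 152 CPM in hypoxia, and at 54.7, 56.7, 61.3 and 58.5 CPM in KO cells. The KO libraries therefore stood apart as labelled, with CCAR2 mRNA reduced and not absent. Of 6 genes known from this line, VIM, a mesenchymal marker, was at 5103 ± 99.8 CPM in WT normoxia (SD, n = 4) and the others were between 629 and 1141 CPM, while ESR1, PGR and CDH1, which the line lacks, were below 1 CPM in each library. Among markers of other cells, the leukocyte gene PTPRC stayed below 1 CPM in each library, CD3E and ALB were at 0 in each WT normoxia and KO library, and COL1A1 and PECAM1 were higher in KO cells in the edgeR test.

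The promoters of 6 MRP genes are shown because these genes differ in how they responded. MRPL39 had the lowest fold change of the MRP genes in KO cells, MRPL47 the lowest in hypoxia, MRPS26 was low in KO cells and not in hypoxia, MRPS18B had fold changes of opposite sign, MRPS30 was lower in hypoxia alone among the comparisons with WT normoxia, and MRPL17 had a log2 fold change near 0 in KO cells. Each is the stretch of 100 bases just before the first start listed for the gene in RefSeq (GRCh38.p14), written 5′ to 3′ on the strand of the gene. Capitals mark matches on either strand to 4 short motifs, the ETS core CCGGAAG bound by factors such as GABP, the NRF1 core GCATGCG, the YY1 core GATGGCG and the E-box CACGTG.
MRPL39: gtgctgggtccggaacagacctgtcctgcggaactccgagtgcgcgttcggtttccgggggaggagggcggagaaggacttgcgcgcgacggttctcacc
MRPL17: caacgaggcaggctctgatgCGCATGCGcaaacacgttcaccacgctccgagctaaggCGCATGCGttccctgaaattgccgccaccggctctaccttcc
MRPL47: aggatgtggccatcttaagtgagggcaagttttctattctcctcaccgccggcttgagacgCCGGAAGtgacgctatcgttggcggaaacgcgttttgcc
MRPS26: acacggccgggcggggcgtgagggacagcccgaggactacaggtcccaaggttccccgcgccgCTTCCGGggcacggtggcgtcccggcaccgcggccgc
MRPS18B: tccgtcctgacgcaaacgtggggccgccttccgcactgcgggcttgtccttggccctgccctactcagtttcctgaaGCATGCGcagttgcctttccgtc
MRPS30: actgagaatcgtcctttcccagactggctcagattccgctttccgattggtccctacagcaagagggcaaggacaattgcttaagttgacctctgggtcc

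These stretches lie at chr21:25607482-25607581 (minus strand) for MRPL39, chr11:6683341-6683440 (minus) for MRPL17, chr3:179604639-179604738 (minus) for MRPL47, chr20:3045952-3046051 (plus) for MRPS26, chr6:30617740-30617839 (plus) for MRPS18B and chr5:44808847-44808946 (plus) for MRPS30. In GENCODE each of these genes begins upstream of the RefSeq start used. MRPS26 begins there at 3045945 and MRPS18B at 30617709, so their printed stretches, with the motifs, lie wholly inside the gene. The other stretches lie partly inside, with GENCODE starts at 25607517 (MRPL39), 6683401 (MRPL17), 179604654 (MRPL47) and 44808925 (MRPS30). MRPL17 holds the NRF1 core in 2 palindromic copies, each matching on both strands, and MRPS18B holds it once. The MRPL17 copy nearer the RefSeq start is also inside the gene. MRPL47 and MRPS26 hold the ETS core, MRPS26 on the opposite strand. None of the 4 motifs is in the MRPL39 or MRPS30 stretch. In the longer window used for the shares below, MRPS30 and MRPS18B also hold the YY1 core, and MRPL39 holds none of the 4. A further motif counted below, ACGTG, was not marked and is in that window of MRPL17 and MRPS18B.

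A promoter of 250 bases before to 50 bases after the RefSeq start was found for 69 of the 78 genes. MRPL2, MRPL10, MRPL13, MRPL15, MRPL21, MRPL23, MRPL35, MRPS28 and MRPS36 were not matched. The ETS core was in 42.0% of the 69 promoters (29), against 17.8% of 11496 promoters of protein-coding genes tested and 10.3% of all 35116 promoters in the table. The YY1 core was in 23.2% (16), against 7.02% and 4.20%. The NRF1 core was in 10.1% (7), against 5.98% and 3.91%. For the E-box the share was 8.70% (6), against 9.85% and 7.26%, and for ACGTG, the core of hypoxia response elements, which is also part of the E-box, it was 27.5% (19), against 25.9% and 21.4%. Thus the ETS and YY1 letters were more frequent in the MRP promoters than in the other promoters, and the E-box and ACGTG were about as frequent as in protein-coding genes tested. The promoters compared were not limited to genes expressed at the level of the MRP genes. Whether the shares differ from those of such genes was not tested. Among the MRP genes, the ETS core was in 15 of 38 promoters of genes lower in KO cells and in 14 of 31 of those not called, the YY1 core in 8 and 8, the NRF1 core in 4 and 3, the E-box in 6 and 0, and ACGTG in 13 and 6. These differences within the MRP genes were not tested.

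In WT normoxia, the level of the MRP genes per kb of transcript had a median of 38.0 CPM per kb, against 6.43 CPM per kb over all protein-coding genes tested. The median was 42.2 CPM per kb for the large subunit and 34.1 CPM per kb for the small subunit. Levels ran from 4.01 CPM per kb for MRPS33 to 134 CPM per kb for MRPL12, a 33.5-fold range. MRPL12 is the stalk protein that recruits translation factors, and it was followed by MRPL51 (120 ± 12.1 CPM per kb), MRPS24 (102 ± 11.1), MRPS34 and MRPL4. The intervals of 1 SD around neighbours in this order, MRPL12 and MRPL51 and then MRPL51 and MRPS24, overlapped. At the low end stood MRPS33, MRPL42, MRPS18B, MRPL50 and MRPS11. The length used is that of 1 transcript per gene in GENCODE 29, and for MRPL42 it is 15582 bases, so its 4.78 CPM per kb depends on which transcript is taken.

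**Figure D1:**
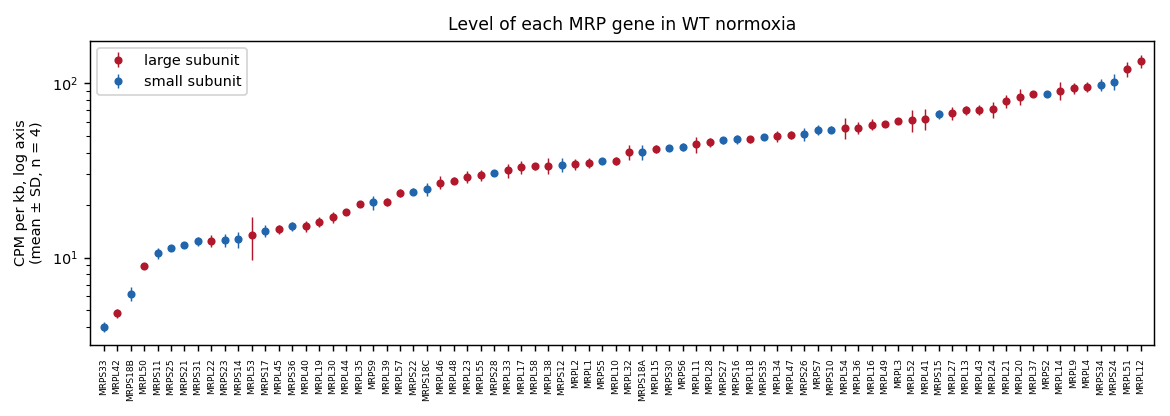
Level of each of the 78 MRP genes in WT normoxia as CPM per kb of transcript on a log axis (points, mean of 4 libraries; bars, SD), ordered from lowest to highest and coloured by the subunit in the name. Levels run from 4.01 for MRPS33 to 134 for MRPL12, with both subunits spread over the range.

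Whether the loss of CCAR2 changed the MRP genes was asked by comparing KO cells with WT cells in normoxia. Of the 78 MRP genes, 45 (57.7%) were lower in KO cells at an adjusted p-value under 0.05 and 0 were higher. Over all 21410 genes tested, 15.4% were lower and 14.9% higher at that threshold, and among the 9645 protein-coding genes with a mean count at or above that of the lowest MRP gene, 27.2% were lower and 19.9% higher. The log2 fold change was negative for 76 of the 78 MRP genes, against 49.0% of all genes and 5410 of those 9645 protein-coding genes. The changes were small, with a median log2 fold change of -0.19 over the MRP genes and a range of -0.46 to 0.06. The median was 0.01 over all genes and -0.04 over those protein-coding genes. Beside the count of 0 higher genes, 0 were higher at an unadjusted p under 0.05 in edgeR, and DESeq2 and limma-voom also called 0 higher. No MRP gene passed an absolute log2 fold change of 0.5 together with the adjusted p, against 2.94% of all genes lower and 6.73% higher by both thresholds.

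Both subunits took part. For the large subunit 29 of 49 genes were lower, and for the small subunit 16 of 29, with a median log2 fold change of -0.19 in each. All 4 KO libraries lay below all 4 WT libraries for 36 of the 78 genes, against 15.2% of all genes tested, and above for 0, against 15.6%. Of the 9645 protein-coding genes at or above the lowest MRP mean count, 2448 lay below and 1917 above. The difference between subunits was not tested. Placing MRPS30 and MRPS18A with the large subunit and leaving out MRPS36 gave medians of -0.19 and -0.21.

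**Figure D2:**
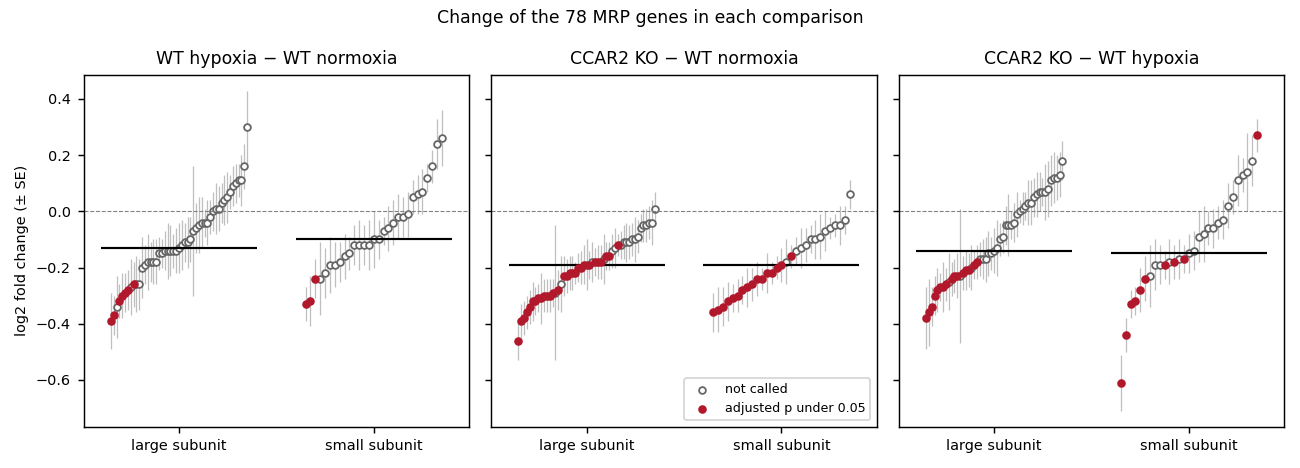
Log2 fold change of each MRP gene (points, with SE) in the 3 comparisons, ordered within each subunit, with filled points for an adjusted p under 0.05 and a black line at the median. In KO cells against WT normoxia 76 of 78 points lie below 0 and 45 are filled, and in hypoxia 58 lie below 0 and 10 are filled.

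MRPL39, a large subunit protein with no counterpart in the bacterial ribosome, was lowest. It was at 22.8, 22.9, 25.1 and 22.1 CPM in WT normoxia and at 18.0, 17.8, 15.2 and 16.5 CPM in KO cells. Its log2 fold change was -0.46 ± 0.07 (SE, adjusted p = 3.3e-04), and each KO library was below each WT library. MRPL42, another protein of the large subunit, was at 75.8, 75.7, 77.5 and 68.6 CPM in WT normoxia and at 62.2, 58.1, 51.1 and 55.5 CPM in KO cells (log2 fold change -0.39 ± 0.06, adjusted p = 4.1e-04). MRPL1, the homologue of the bacterial protein of the mobile stalk by which deacylated tRNA leaves, went from 50.9, 55.0, 54.3 and 47.7 CPM to 43.8, 41.2, 37.4 and 37.8 CPM (-0.38 ± 0.06, adjusted p = 7.2e-04). For both genes the groups did not overlap.

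MRPL12, of the stalk, was at 125, 149, 148 and 130 CPM in WT normoxia and at 105, 112, 111 and 106 CPM in KO cells, a log2 fold change of -0.34 ± 0.06 (adjusted p = 7.2e-04). MRPL11, at the base of the stalk, was at 62.9, 79.4, 76.5 and 68.1 CPM in WT normoxia and at 53.7, 62.3, 59.1 and 54.5 CPM in KO cells (-0.32 ± 0.07, adjusted p = 0.00552). Neither gene overlapped between groups. MRPL10, which anchors MRPL12, had a log2 fold change of -0.20 (adjusted p = 0.00704), and MRPL53 and MRPL54, other proteins of the large subunit, were not called (-0.29, adjusted p = 0.411, and -0.17, adjusted p = 0.207). MRPL58, the peptidyl-tRNA hydrolase that has become a part of the large subunit and acts on stalled ribosomes, was at 27.9, 30.2, 30.4 and 30.2 CPM in WT normoxia and at 24.4, 25.6, 28.2 and 26.6 CPM in KO cells. The groups of MRPL58 overlapped by 1 library on each side, and its log2 fold change of -0.18 ± 0.06 (adjusted p = 0.0337) lost the call without any 1 of KO replicates 1, 2 or 4 or WT normoxia replicates 2, 3 or 4 (adjusted p between 0.0621 and 0.0823) and with the trend on transcript length removed (-0.12, adjusted p = 0.0979).

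In the small subunit MRPS26, a protein found in mitochondrial ribosomes alone, was lowest. It was at 50.1, 59.4, 61.6 and 58.3 CPM in WT normoxia and at 41.9, 43.9, 49.9 and 43.2 CPM in KO cells (log2 fold change -0.36 ± 0.07, adjusted p = 0.00218). MRPS9, with a bacterial counterpart in the head of the small subunit, was at 28.8, 34.0, 32.9 and 28.5 CPM in WT normoxia and at 23.2, 25.8, 23.5 and 25.7 CPM in KO cells (-0.34 ± 0.07, adjusted p = 0.00295). The KO libraries of both genes were below all WT libraries, for MRPS26 by less than 1 CPM.

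The MRPS18 paralogs, which descend from 1 bacterial protein and occupy different places in the ribosome, were called for MRPS18B and MRPS18C and not for MRPS18A. MRPS18B was at 8.66, 10.4, 10 and 8.79 CPM in WT normoxia and at 6.97, 7.85, 7.69 and 7.33 CPM in KO cells, a log2 fold change of -0.35 ± 0.08 (adjusted p = 0.00808). MRPS18C, which keeps the bacterial place in the small subunit, was at 37.3, 43.0, 44.1 and 37.5 CPM in WT normoxia and at 31.5, 35.6, 34.6 and 32.8 CPM in KO cells (-0.27 ± 0.07, adjusted p = 0.00922). MRPS18A, the paralog in the large subunit, was at 37.9, 45.7, 46.6 and 40.6 CPM in WT normoxia and at 39.5, 41.2, 45.0 and 39.2 CPM in KO cells, with overlapping groups and a log2 fold change of -0.05 ± 0.07 (adjusted p = 0.646). Differences between the paralogs were not tested, and on the opposite strand exons of MRPS18A share 47.0% of their bases with RSPH9 and those of MRPS18C 40.2% with ABRAXAS1.

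**Figure D3:**
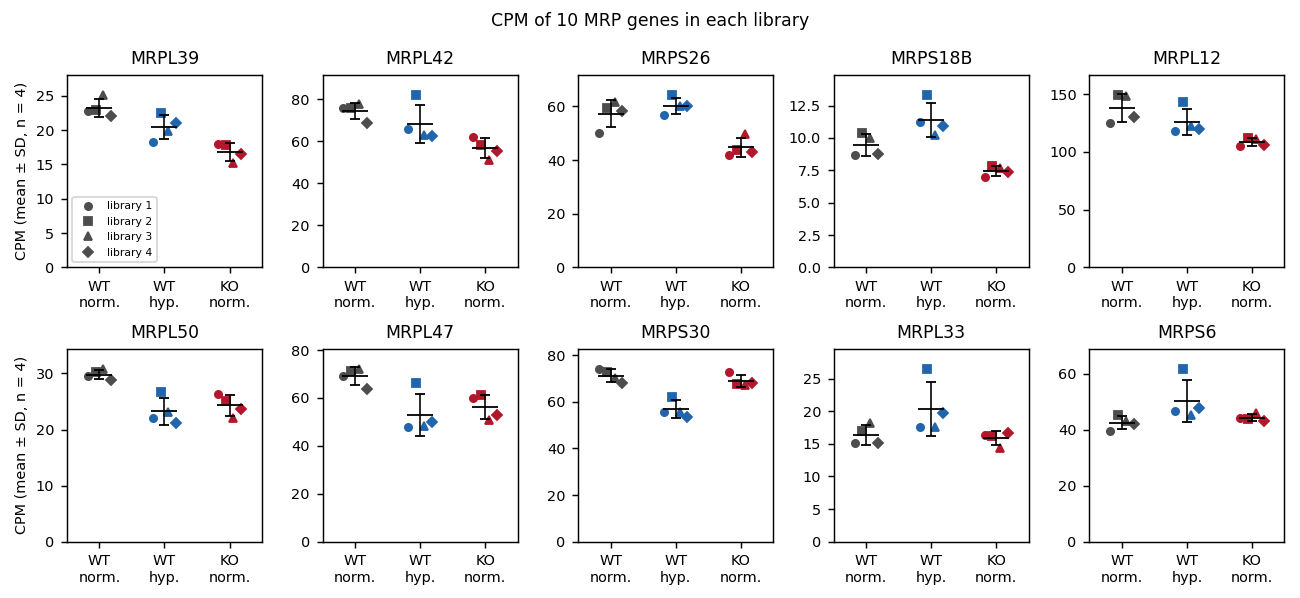
CPM of 10 MRP genes in each library of WT normoxia, WT hypoxia and CCAR2 KO normoxia (symbols, libraries 1 to 4; bars, mean ± SD, n = 4; the axis of each panel starts at 0). MRPL39, MRPL42, MRPS26, MRPS18B and MRPL12 are below WT in all 4 KO libraries, and MRPL50 and MRPS30 are below WT normoxia in all 4 hypoxia libraries.

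The remaining large subunit genes lower in KO cells were MRPL2, MRPL3, MRPL4, MRPL9, MRPL13, MRPL15, MRPL16, MRPL20, MRPL21, MRPL22, MRPL35, MRPL36, MRPL37, MRPL38, MRPL41, MRPL45, MRPL47, MRPL48, MRPL49, MRPL50, MRPL51 and MRPL57, with log2 fold changes from -0.36 for MRPL22, which lines the exit tunnel, to -0.12 for MRPL49. The remaining small subunit genes lower in KO cells were MRPS2, MRPS5, MRPS12, MRPS15, MRPS17, MRPS21, MRPS22, MRPS27, MRPS28, MRPS31, MRPS34 and MRPS35, from -0.32 for MRPS31 to -0.16 for MRPS5. Those not called ranged from -0.29 for MRPL53, whose values scattered most between libraries, to 0.06 for MRPS6. MRPS6 was at 39.7, 45.2, 43.3 and 42.1 CPM in WT normoxia and at 44.3, 43.8, 46.2 and 43.2 CPM in KO cells (log2 fold change 0.06 ± 0.05, adjusted p = 0.420). MRPL17 had a log2 fold change of 0.01 ± 0.06, MRPS10 of -0.03 ± 0.05, MRPL33 of -0.04 ± 0.08 and MRPL30 of -0.04 ± 0.06. MRPS36, the dehydrogenase component, was not called at -0.09 ± 0.08 (adjusted p = 0.470).

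Other ribosomal and short genes moved with this result. Of 86 cytosolic ribosomal protein genes tested, 71 were lower in KO cells, with a median log2 fold change of -0.31. Transcripts of the MRP genes are short, with a median of 1.46 kb against 3.06 kb for protein-coding genes, and the median of protein-coding genes with transcripts under 1.5 kb was between -0.14 and -0.07 (log2, relative to the WT normoxia mean) in the 4 KO libraries. With the trend on transcript length removed from each library, 42 MRP genes were lower in KO cells (40 of them among the 45), against 18.2% of all genes in that fit, and the median was -0.16. Of the 6 genes known from this line, 4 (CD44, AXL, ANXA1 and KRT18) were lower in KO cells as well, with log2 fold changes from -0.23 to -0.20, and VIM was at 0.03 ± 0.05. Their part in the result was not tested.

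How hypoxia changed the MRP genes was asked by comparing WT cells at 24 hr with WT cells in normoxia. Here 10 of the 78 genes (12.8%) were lower and 0 were higher, while 12% of the 21776 genes tested were lower and 11.6% higher, and 23.9% of protein-coding genes at or above the lowest MRP mean count were lower and 13.2% higher. The share of MRP genes lower was thus near that of all genes and under that of these protein-coding genes. The log2 fold change was negative for 58 genes, against 48.6% of all genes, with a median of -0.12 (0.01 over all genes) and a range of -0.39 to 0.30. Of the protein-coding genes at or above the lowest MRP mean count, 5796 of 9300 were negative, with a median of -0.07. Of the 0 higher genes, 5 had an unadjusted p under 0.05 in edgeR, and DESeq2 called 4 higher and limma-voom 0. The 4 are MRPL33, MRPS5, MRPS6 and MRPS18B. No MRP gene passed both thresholds, against 1.43% of all genes lower and 5.83% higher.

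Most libraries moved the count when left out, and hypoxia replicate 2 moved it most. The WT normoxia libraries themselves spread around their mean on the log2 scale. In WT normoxia replicates 1 to 4 the median MRP gene was at -0.10, 0.08, 0.07 and -0.06. The median protein-coding gene with a transcript under 1.5 kb was at -0.10, 0.08, 0.07 and -0.04. In hypoxia replicate 2 the median MRP gene was 0.08 above the WT normoxia mean, whereas in hypoxia replicates 1, 3 and 4 it was at -0.17, -0.18 and -0.14. In the same library the median cytosolic ribosomal protein gene was at 0.18, the median protein-coding gene with a transcript under 1.5 kb at 0.14 and that with a transcript of 4 kb or more at -0.14. Their part in the result was not tested. Without hypoxia replicate 2 the 10 calls were kept, and 40 of the 78 MRP genes were lower (25 of the large subunit and 15 of the small subunit), against 16.2% of all genes tested in that fit, with a median of -0.18. With this library in, the count was 5 without hypoxia replicate 1, 4 without replicate 3, 4 without replicate 4, 5 without WT normoxia replicate 2, 6 without WT normoxia replicate 3, 13 without WT normoxia replicate 1 and 9 without WT normoxia replicate 4. Of all genes, between 8.17% and 9.71% were lower in these fits. With the trend on transcript length removed, 29 MRP genes were lower, against 15.5% of all genes.

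**Figure D4:**
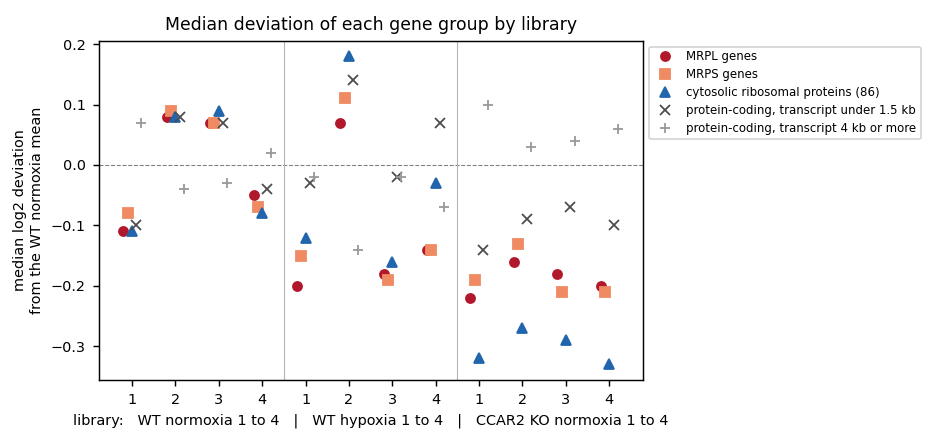
Median log2 deviation from the WT normoxia mean in each of the 12 libraries, for the MRPL genes, the MRPS genes, the cytosolic ribosomal protein genes, and protein-coding genes with short and with long transcripts. The MRP medians lie between -0.22 and -0.13 in the 4 KO libraries and between -0.20 and -0.14 in hypoxia replicates 1, 3 and 4, while hypoxia replicate 2 lies above 0. In the WT normoxia libraries they lie between -0.11 and 0.09.

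MRPL50, a large subunit protein with no bacterial counterpart, was at 29.5, 30.2, 30.7 and 28.8 CPM in WT normoxia and at 22.0, 26.6, 23.2 and 21.1 CPM in hypoxia. Each hypoxia library was below each WT library, replicate 2 included, and the log2 fold change was -0.37 ± 0.07 (adjusted p = 0.00449), but -0.17 (adjusted p = 0.0489) with the trend on GC content removed from each library. MRPS30 was at 73.9, 72.9, 70.1 and 67.9 CPM in WT normoxia and at 55.8, 62.3, 55.7 and 53.6 CPM in hypoxia, again without overlap (-0.33 ± 0.06, adjusted p = 0.00229). MRPL47, which sits near the exit tunnel and had the lowest fold change, was at 69.3, 71.3, 71.9 and 63.7 CPM in WT normoxia and at 47.8, 66.2, 48.5 and 49.8 CPM in hypoxia. Its groups overlapped through hypoxia replicate 2, and its log2 fold change of -0.39 ± 0.10 (adjusted p = 0.0155) missed the threshold without hypoxia replicate 3 (adjusted p = 0.0502) or replicate 4 (0.0528) and with the GC trend removed (-0.22, adjusted p = 0.0788). For MRPS30 the value with the GC trend removed was -0.30 (adjusted p = 0.00249).

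MRPS35 was at 95.9, 95.1, 91.4 and 89.2 CPM in WT normoxia and at 71.1, 91.7, 69.0 and 67.2 CPM in hypoxia. This small subunit gene had a log2 fold change of -0.32 ± 0.09 (adjusted p = 0.0254), which lost the call without any 1 of hypoxia replicates 1, 3 or 4 or WT normoxia replicates 1, 2 or 3 (adjusted p between 0.0529 and 0.0790) and with the GC trend removed (-0.20, adjusted p = 0.0779). The other genes lower in hypoxia were MRPL9 (log2 fold change -0.32), MRPL35 (-0.30), MRPL19 (-0.29), MRPL3 (-0.28), MRPL32 (-0.26) and MRPS7 (-0.24). MRPL9 and MRPL19 did not overlap between groups. MRPS36, at -0.24 ± 0.13, was not called (adjusted p = 0.204). In all, 5 genes lay below WT normoxia in all hypoxia libraries and 4 above, against 12.7% and 13.7% of all genes tested. Of the 9300 protein-coding genes at or above the lowest MRP mean count, 2192 lay below and 1387 above. MRPL1, at 38.3, 53.5, 36.9 and 36.8 CPM in hypoxia, had a log2 fold change of -0.34 ± 0.11 (adjusted p = 0.0522) with all libraries and -0.49 (adjusted p = 1.7e-04) without hypoxia replicate 2. MRPL1 was called lower by DESeq2 (adjusted p = 0.0110) and limma-voom (adjusted p = 0.0227), and with the GC trend removed it was at -0.19 (adjusted p = 0.203).

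At the upper end, MRPL33 was at 15.1, 17.0, 18.2 and 15.1 CPM in WT normoxia and at 17.6, 26.4, 17.6 and 19.7 CPM in hypoxia, with a log2 fold change of 0.30 ± 0.13 (adjusted p = 0.110). The high value is again replicate 2, and exons of MRPL33 overlap those of BABAM2 over 21.1% of their length. MRPS18B was at 11.2, 13.3, 10.2 and 10.9 CPM in hypoxia (0.26 ± 0.10, adjusted p = 0.0937). MRPS6, which was at 46.9, 61.6, 45.4 and 47.8 CPM in hypoxia, lay above WT normoxia in each library (0.24 ± 0.09, adjusted p = 0.0924). MRPS5, a protein of the mRNA entry region, was at 57.0, 62.3, 59.5 and 57.6 CPM in WT normoxia and at 65.9, 71.3, 62.5 and 65.6 CPM in hypoxia (0.16 ± 0.06, adjusted p = 0.0618), without overlap. In the large subunit MRPL14 was at 0.16 ± 0.08 (adjusted p = 0.172), also without overlap, and MRPL28 at 0.11 ± 0.06 (adjusted p = 0.170).

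KO cells and hypoxic WT cells were compared directly, since both comparisons above share the WT normoxia libraries. In KO cells 25 of the 78 MRP genes (32.1%) were lower than in hypoxia and 1 was higher, against 17.8% and 17.1% of the 21158 genes tested, and against 24.1% and 26.9% of protein-coding genes at or above the lowest MRP mean count. By subunit, 16 of 49 large and 9 of 29 small subunit genes were lower. The log2 fold change was negative for 55 genes, against 51.8% of all genes, with a median of -0.14 (-0.02 over all genes). Of the protein-coding genes at or above the lowest MRP mean count, 4631 of 9559 were negative, with a median of 0.01. All KO libraries lay below all hypoxia libraries for 26 genes and above for 1, against 17.8% and 18.2% of all genes. Of the 9559 protein-coding genes, 2233 lay below and 2621 above. The count of 25 lower MRP genes depended on the length trend and on single libraries. With the trend on transcript length removed, 12 were lower and 8 higher with a median of -0.03, while 18.0% of all genes were lower in that fit. Without KO replicate 1 there were 15 lower, without KO replicate 4 there were 11, and without hypoxia replicate 2 there were 24 lower and 11 higher. Of all genes, 14.7%, 14.2% and 18.2% were lower in these fits, and 4017 of 21972 were higher in the last.

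MRPS18B passed both thresholds, which 7.88% of all genes did in the lower and 7.08% in the higher direction. It lay between 6.97 and 7.85 CPM in KO cells and between 10.2 and 13.3 CPM in hypoxia (log2 fold change -0.61 ± 0.10, adjusted p = 5.2e-04). MRPS26 was lower by -0.44 ± 0.06 on the log2 scale (adjusted p = 3.0e-04), with KO libraries between 41.9 and 49.9 CPM and hypoxia libraries at 56.8, 64.2, 60.0 and 60.1 CPM, and by -0.28 with the GC trend removed. MRPS5 was lower by -0.33 ± 0.05 (adjusted p = 4.6e-04), with KO libraries at 51.9, 54.6, 51.0 and 53.6 CPM. None of these genes overlapped between the groups.

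MRPL11 had a log2 fold change of -0.34 ± 0.07 (adjusted p = 0.00196) and MRPL14 of -0.26 ± 0.06 (adjusted p = 0.00332), both proteins of the large subunit with bacterial counterparts. MRPL23, next to the exit of the tunnel, was at -0.38 ± 0.11 (adjusted p = 0.0165), and lost the call without KO replicate 1 (adjusted p = 0.0580) or KO replicate 4 (0.0619) and with the GC or the length trend removed (-0.19, adjusted p = 0.205, and -0.26, adjusted p = 0.0605). MRPL33 was at -0.36 ± 0.12 (adjusted p = 0.0403), and lost the call without any 1 of the 4 KO replicates or hypoxia replicates 2 or 4 (adjusted p between 0.0546 and 0.112) and with the length trend removed (-0.24, adjusted p = 0.146). MRPL12 was at -0.22 ± 0.06 (adjusted p = 0.0199), and lost the call without KO replicate 1 (adjusted p = 0.0653) or KO replicate 4 (0.0665) and with the GC or the length trend removed (-0.04, adjusted p = 0.695, and -0.09, adjusted p = 0.204).

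MRPS30 was the gene that was higher in KO cells than in hypoxia, at 72.7, 67.8, 67.1 and 68.0 CPM against 55.8, 62.3, 55.7 and 53.6 CPM, a log2 fold change of 0.27 ± 0.06 (adjusted p = 0.00266) without overlap. In KO cells it did not differ detectably from WT normoxia (-0.05 ± 0.04, adjusted p = 0.453). The other genes among the 3 highest of each subunit in the direct comparison were not called in edgeR. They were MRPL19 (0.18 ± 0.07, adjusted p = 0.0598), MRPL30 (0.13 ± 0.08, adjusted p = 0.264), MRPL35 (0.12 ± 0.08, adjusted p = 0.268), MRPS10 (0.18 ± 0.09, adjusted p = 0.148) and MRPS36 (0.14 ± 0.14, adjusted p = 0.485). For MRPL50 and MRPL47, lower in both comparisons with WT, and for MRPL1, lower in KO cells, the direct log2 fold changes were 0.06 ± 0.08, 0.08 ± 0.10 and -0.05 ± 0.11, none of them called.

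Added up over the 78 genes, the level was 4083 ± 71.4 CPM in KO cells, 4378 ± 326 CPM in hypoxia and 4674 ± 264 CPM in WT normoxia (SD, 4 libraries per group). The KO sums, between 4026 and 4187 CPM, lay below those of WT normoxia, between 4388 and 4925 CPM, while the hypoxia sums ran from 4162 to 4854 CPM. The ratio of the summed large to the summed small subunit was between 1.72 and 1.83 in the 12 libraries. These are levels in bulk RNA relative to all RNA in a library, so that a lower level in each cell and fewer cells with the mRNA cannot be told apart.

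Exons of 41 MRP genes share bases with another annotated gene, 16 of them on the same strand, where counting could divide reads. The same holds for the opposite strand if counting did not use the strand, which was not examined. Among these 41 genes 22 were lower in KO cells, and among the 37 others 23 were, with a median of -0.19 in each set. MRPL12 is the widest case named here, since 68.2% of its exon bases are shared with AC139530.2.

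Other genes of mitochondrial translation were read from lists of known function. Their counts stand beside the 15.4% lower and 14.9% higher of all genes in KO cells and the 12% and 11.6% in hypoxia, and beside the 27.2% and 23.9% lower of protein-coding genes at or above the lowest MRP mean count. Of 5 ribosomal proteins with other symbols, 3 were lower in KO cells and 0 in hypoxia. DAP3, the GTP-binding protein of the small subunit, had a log2 fold change of -0.23 ± 0.05 in KO cells (adjusted p = 0.00511) and -0.07 ± 0.07 in hypoxia (adjusted p = 0.558). Among 26 genes of ribosome assembly and rRNA modification, 8 were lower in KO cells and 0 higher, and in hypoxia 4 were lower (15.4%) and 3 higher, near the shares of all genes. The extremes were YBEY, an RNase-like protein of ribosome maturation (-0.43 ± 0.09 in KO cells, adjusted p = 0.00255), and in hypoxia the GTPases GTPBP10 (-0.43 ± 0.07, adjusted p = 0.00116) and MTG1 (0.34 ± 0.06, adjusted p = 0.00261), both of which act in maturation of the large subunit.

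Of 16 translation factors, 6 were lower in KO cells (37.5%) and 3 in hypoxia (18.8%, between both background shares), and 0 were higher in edgeR. GFM1, the elongation factor of translocation, was lowest in hypoxia at -0.44 ± 0.06 (adjusted p = 5.2e-04). Of 20 mitochondrial aminoacyl-tRNA synthetases and related genes, 9 were lower (45.0%) and 0 higher in KO cells, and 3 were lower (15.0%) and 2 higher in hypoxia, the latter near the shares of all genes. NARS2 was lowest in KO cells at -0.37 ± 0.06 (adjusted p = 7.1e-04), and AARS2 was higher in hypoxia at 0.33 ± 0.08 (adjusted p = 0.00933).

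For the mitochondrial genome itself, 6 of 12 genes of transcription and maintenance were lower in KO cells, and 4 were lower and 2 higher in hypoxia. TFAM, which packages mitochondrial DNA, had a log2 fold change of -0.34 ± 0.05 in KO cells (adjusted p = 4.0e-04) and -0.32 ± 0.06 in hypoxia (adjusted p = 0.00468). Of 9 regulators of mitochondrial biogenesis, 4 (44.4%) were lower in KO cells and 4 in hypoxia, and in KO cells against hypoxia 1 was lower and 2 higher. GABPB1, a subunit of the ETS factor GABP, was at 35.6, 35.9, 33.7 and 32.2 CPM in WT normoxia, with log2 fold changes of -0.28 ± 0.06 in KO cells (adjusted p = 0.00283) and -0.31 ± 0.06 in hypoxia (adjusted p = 0.00458). GABPA, the other GABP gene listed, was not called in KO cells (0.01 ± 0.07, adjusted p = 0.916) and was lower in hypoxia (-0.26 ± 0.07, adjusted p = 0.0271). In KO cells against hypoxia GABPA was higher (0.26 ± 0.07, adjusted p = 0.0156).

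The rRNAs to which the MRPs bind were both higher in hypoxia. MT-RNR1, the rRNA of the small subunit, was at 501, 511, 484 and 448 CPM in WT normoxia and at 812, 1082, 724 and 863 CPM in hypoxia, a log2 fold change of 0.83 ± 0.11 (adjusted p = 4.0e-04) without overlap. MT-RNR2, the rRNA of the large subunit, had a log2 fold change of 0.41 ± 0.10 in hypoxia (adjusted p = 0.0113). In KO cells they were at 0.04 ± 0.05 and 0.09 ± 0.05, neither called. Of 13 mRNAs of the mitochondrial genome, 3 were lower in hypoxia (23.1%) and 2 in KO cells (15.4%, the share of all genes), and MT-ND2 was lowest in both (-0.44 ± 0.10, adjusted p = 0.00697, and -0.16 ± 0.05, adjusted p = 0.0292). In KO cells against hypoxia MT-RNR1 was at -0.80 ± 0.10 (adjusted p = 1.1e-04) and passed both thresholds, as did the assembly genes MTG1 (-0.56 ± 0.06, adjusted p = 3.6e-05) and MRM1, a methyltransferase of the large subunit rRNA (-0.54 ± 0.15, adjusted p = 0.0132). Poly-A RNA was sequenced, per the methods, and adenylation of the rRNAs was not measured.

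**Figure D5:**
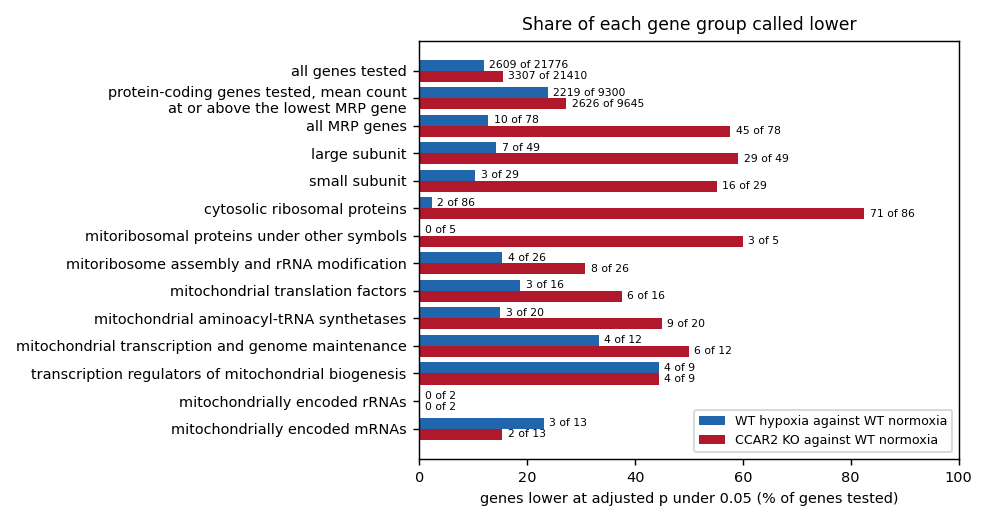
Percent of the genes tested in each list that were lower at an adjusted p under 0.05, in hypoxia (blue) and in CCAR2 KO cells (red) against WT normoxia, with the counts beside the bars and all genes tested as the first entry. For the MRP genes the share is 12.8% in hypoxia and 57.7% in KO cells, and for the cytosolic ribosomal protein genes 2.33% and 82.6%.

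Over the 12 libraries, the genes whose log2 CPM followed the median of the MRP genes most closely, among 13605 candidates, were LDHB and SLC25A3, each with a Pearson correlation of 0.98. LDHB encodes a lactate dehydrogenase subunit and SLC25A3 the mitochondrial phosphate carrier. LDHB was at 861 ± 55.1 CPM in WT normoxia, 782 ± 94.2 CPM in hypoxia and 729 ± 11.2 CPM in KO cells (SD, n = 4), and hypoxia replicate 2, at 919 CPM, was again the highest of its group. The points share their libraries and the group differences, so the correlation is a description.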

How the data were processed

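RNA-seq of 12 MDA-MB-231 libraries was used, with groups taken from the labels. Per the methods, the authors aligned reads with Hisat2 and quantified genes with StringTie, while the submitters' processing notes name HISAT2, SAMtools and featureCounts. The genome build is not given in the sources used here. The deposited values were treated as estimated counts (expected counts), which are whole numbers per gene, not scaled to library size. The labels and the methods name different extraction and library kits, and the methods name fewer replicates than the 4 libraries per group.

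Each comparison was fitted on all genes of its 8 libraries with edgeR 4.0.16 in R 4.3.3 (TMM, filterByExpr, glmQLFit, glmQLFTest, p-values adjusted by Benjamini-Hochberg). The first threshold was an adjusted p under 0.05, and the second added an absolute log2 fold change of 0.5. SE is the log2 fold change divided by the root of the F statistic. CPM were scaled by TMM over all 12 libraries, and per-library medians are log2 CPM minus the WT normoxia mean. Transcript lengths and exons came from GENCODE 29, and promoters from RefSeq GRCh38.p14, taking the first start listed for a gene.

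The MRP genes, lists and tests were chosen with earlier results of these data known. Genes named are the 3 highest and 3 lowest log2 fold changes of each subunit in each comparison with a mean of at least 100 counts, genes past both thresholds, MRPL12, MRPL58, MRPS36, MRPS30, MRPS18A, MRPS18B and MRPS18C, and the extremes of each list. Other MRP genes are named only where a count or a group is spelled out. Whether the replicate numbers pair the libraries was not settled for hypoxia against WT normoxia. There the correlations of deviations between same-numbered libraries were 0.15, 0.12, 0.14 and 0.05, under the limit of 0.1 in 1 pair. In the other comparisons they were between -0.21 and 0.09, all under the limit. The main fits used no pairing. Between libraries of a group the chi-square divided by its degrees of freedom was 13.0 to 87.2, so none was counted as a duplicate. Alternatives were DESeq2 1.42.0, limma-voom (limma 3.58.1), RLE normalization, other filters, a single fit of all 12 libraries, the replicate number as a block, counts divided by 4, a lowess trend (span 0.3) on GC content or transcript length removed as an offset, and each library left out. The fits were tested on simulated data. Since the values are estimates, read depth is not known, and precision is given by the spread between libraries.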

Additional observations from a re-analysis of the deposited data

Results flagged for a closer look

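Of 81 groups of 4 libraries examined for named MRP genes (27 genes in 3 groups), 14 had 1 library whose gap to the nearest other, divided by the range of the group, was above Dixon's 95% critical value, where about 4.05 would be by chance. In 9 of these groups the library was hypoxia replicate 2, which was highest for MRPL47 (0.893), MRPL1 (0.907), MRPS35 (0.841), MRPS6 (0.854), MRPL12 (0.843), MRPL42 (0.837), MRPS9 (0.899), MRPS10 (0.943) and MRPL35 (0.906). The other groups were MRPL14 in hypoxia replicate 4 (0.975, highest) and in KO replicate 1 (0.838, lowest), MRPS30 in KO replicate 1 (0.838, highest), MRPL58 in WT normoxia replicate 1 (0.936, lowest) and MRPL35 in WT normoxia replicate 4 (0.886, lowest).

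The change in KO cells differed from the change in hypoxia, by the direct test of KO cells against hypoxia, for 13 of the 27 named genes. This count is a description, since some of these genes were named for the size of this same difference, and over all 78 MRP genes 25 were lower and 1 higher, against 17.8% and 17.1% of all genes. The log2 fold change between them was -0.61 for MRPS18B, -0.44 for MRPS26, -0.38 for MRPL23, -0.36 for MRPL33, -0.34 for MRPL11, -0.33 for MRPS5, -0.28 for MRPL39, -0.27 for MRPL42, -0.26 for MRPL14, -0.24 for MRPL28, -0.24 for MRPS9 and -0.22 for MRPL12, and 0.27 for MRPS30. In each of these the groups compared have 4 libraries.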

How the results depend on the processing

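In hypoxia against WT normoxia, 10 MRP genes were lower (7 large, 3 small), and the count was 19 with DESeq2, 19 with all 12 libraries in one fit, 20 with the replicate block and 29 with the length offset. For the large subunit it was 15, 14, 15 and 20 in these fits, 12 with limma-voom and 11 with the GC offset, and for the small subunit 5 with all 12 libraries, 5 with the block and 9 with the length offset. With the GC offset 15 were lower, of which 4 were among the 10. The count of higher genes was 4 with DESeq2, 2 with all 12 libraries, 2 with the block, and 1 each with at least 10 counts in every library, counts divided by 4 and the GC offset. Leaving out 1 library gave 4 to 40 lower genes (3 to 25 large, 1 to 15 small) and 0 to 1 past both thresholds, the 1 being MRPL47 without hypoxia replicate 2. Of all genes, 8.17% to 16.2% were lower in these fits. In KO cells against WT normoxia the count of 45 lay between 33 and 54 in the other fits, with 1 gene higher (MRPS6) under the length offset, and between 33 and 56 without 1 library (19 to 36 large, 14 to 20 small, the 19 without WT normoxia replicate 3). Of all genes, 8.84% to 19.5% were lower in the other fits and 12.6% to 15.3% without 1 library. In KO cells against hypoxia the length offset left 12 lower (7 large, 5 small) and 8 higher, with medians of -0.03 over all MRP genes, -0.03 for the large and -0.05 for the small subunit, and the GC offset left 9 large subunit genes lower. The count of higher genes was 2 with DESeq2, with at least 10 counts, with all 12 libraries and with counts divided by 4. Leaving out 1 library gave 11 to 28 lower (6 to 18 large, 5 to 10 small) and 1 to 11 higher, while 14.2% to 18.2% of all genes were lower. The 37 genes with no shared exon, counted after the data had been seen, gave 5, 23 and 12 lower in the 3 comparisons, being fewer genes. In hypoxia the log2 fold change of MRPL28 was -0.04 with the GC offset, that of MRPS18A 0.00 with counts divided by 4 and -0.08 to 0.02 without 1 library, and that of MRPL58 -0.12 to 0.01 without 1 library. In KO cells MRPL33 was at 0.02 and MRPS18A at 0.01 with the length offset and MRPL17 at -0.01 with no filter, and without 1 library MRPL33 was at -0.08 to 0.01, MRPL17 at -0.03 to 0.05 and MRPS10 at -0.06 to 0.02. Against hypoxia MRPS18A was at 0.04 with the GC and 0.08 with the length offset, and MRPS18C at 0.01 with the length offset and -0.14 to 0.03 without 1 library. These are values near 0 that changed sign without being called, and the cause of the changes above was not tested. Whether the replicate numbers pair the libraries was not settled for hypoxia, so the fit that matches the design there cannot be told. In hypoxia the block gave 20 lower genes where the main fit gave 10, and MRPL1 (edgeR, adjusted p = 0.0118) was among the added calls.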
